A study of Solenopsis invicta with 3 samples.

Results

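The social supergene of the fire ant *Solenopsis invicta* contributes 5 official gene set entries, besides the odorant-binding protein entry *SiOBP12*, to the genes that the study lists as dependent on worker genotype. These are SINVm1_gene_05144, SINVm1_gene_05175, SINVm1_gene_05176, SINVm1_gene_05326 and SINVm1_gene_13984, and they were taken by identifier. All 5 were found among the 15589 official entries and the 19703 entries of the whole transcript reference. Each is listed by the study as higher in *SB/Sb* workers. The choice was made on further portions of the amplified cDNA sequenced here. The counts and ratios below are therefore not independent evidence of its direction, and SINVm1_gene_13984 went the other way here. For SINVm1_gene_05144, SINVm1_gene_05175 and SINVm1_gene_05326, the study also reports higher levels in *SB/Sb* by qRT-PCR on separate antennal RNA. Antennae were compared between 3 classes of foraging workers. P_Bb were *SB/Sb* workers from the polygyne colonies Rui9, Gui3, Bang3 and Bo5, P_BB were *SB/SB* workers from those same colonies, and M_BB were *SB/SB* workers from the monogyne colonies Rui7, Zhuang3, Tan1 and Rui1. Each class was 1 library, a pool of cDNA from 4 colonies that was amplified colony by colony before mixing, and workers were genotyped one by one beforehand. There was no replicate, no test across samples was possible, and class cannot be told apart from library.

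A supergene is a block of many genes that is inherited as a unit because recombination between its variants is suppressed. In the fire ant the variants are called *SB* and *Sb*. Workers of monogyne colonies, which keep a single queen, all carry *SB/SB*, while polygyne colonies, which keep several queens, hold both *SB/SB* and *SB/Sb* workers. The comparison of P_Bb with P_BB therefore varies genotype within the same colonies, that of P_BB with M_BB varies social form and colony at 1 genotype, and that of P_Bb with M_BB varies all of them.

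The entries carry names of unrelated roles in the study. NADH dehydrogenase (SINVm1_gene_05175) belongs to the first complex of the mitochondrial respiratory chain, which takes electrons from NADH. The ubiquitin-like domain-containing CTD phosphatase (SINVm1_gene_05176) is known in mammals as a phosphatase of the proteasome. Ror (SINVm1_gene_13984) is a family of transmembrane receptor tyrosine kinases that take part in Wnt signalling in mammals. SINVm1_gene_05144 is listed as a coiled-coil domain-containing protein (CCDC142) and SINVm1_gene_05326 as uncharacterized, although the study elsewhere gives the coiled-coil name to SINVm1_gene_05326 and no function to SINVm1_gene_05144. The files hold no sequence of these entries, and a lookup of the 5 in the RefSeq gene table found 0, so neither name was checked.

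The libraries were of similar depth, at 3351500 (P_Bb), 3421923 (P_BB) and 3948464 (M_BB) expected counts, where an expected count is the number of read pairs that RSEM assigns to an entry. Between 93.0% and 94.5% of the 473 odorant receptor entries, which mark antennal tissue, had a count above 0 in each library. Of all 19703 reference entries, 13125 (P_Bb), 13128 (P_BB) and 13271 (M_BB) did. No other tissue was compared. Normalized counts below are expected counts divided by a size factor for each library, and 9260 entries with a mean of at least 10 normalized counts over the 3 libraries were compared. All 5 supergene entries passed this filter. Intervals are exact 95% intervals for counting error only (Poisson for a level, Clopper-Pearson for a ratio), since amplified reads without molecular identifiers are not independent molecules.

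P_Bb was the highest library for 4 of the 5 entries and the lowest for SINVm1_gene_13984. P_Bb was highest for 36.4% of all entries compared. A lower level in a library of whole antennae may be fewer cells of a type or less RNA per cell, and these cannot be told apart. With 1 added to each normalized count, at least 2-fold above P_BB were 3 of the 5 entries, against 1.64% of all entries, and the same 3 entries were at least 2-fold above M_BB, against 2.13%. Both conditions were met by SINVm1_gene_05144, SINVm1_gene_05175 and SINVm1_gene_05326 and by 0.540% of all entries. SINVm1_gene_05176 was higher in P_Bb by less than 2-fold, and SINVm1_gene_13984 was at least 2-fold lower in P_Bb than in both *SB/SB* libraries, against 0.605% of all entries, a share from which nothing is read because this entry passed the filter only through the libraries where it is high. The median log2 ratio of P_Bb to the mean of P_BB and M_BB, on the same scale, was 1.39 over the 5 entries and 0.02 over all entries compared. The 5 were listed from the same amplified cDNA, so nothing is read from these shares or from this median.

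**Figure D1:**
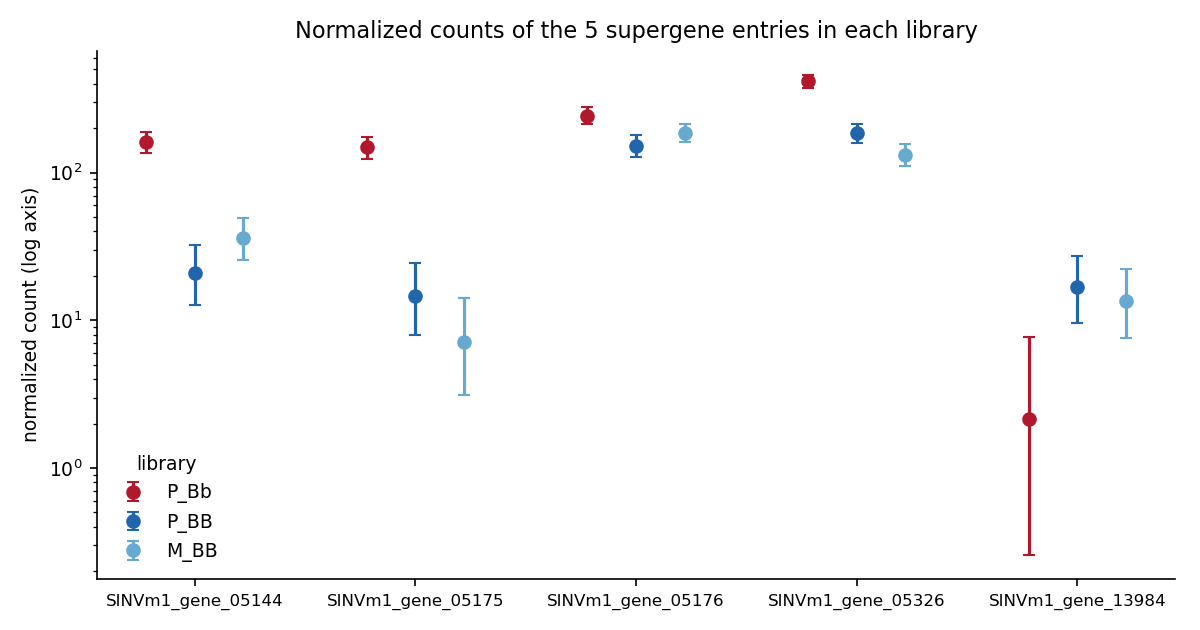
Normalized count (log axis) of each of the 5 supergene entries in the P_Bb, P_BB and M_BB libraries, 1 library per class; bars are exact 95% Poisson intervals and cover counting error only. P_Bb lies above both *SB/SB* libraries with no overlap of intervals for SINVm1_gene_05144, SINVm1_gene_05175 and SINVm1_gene_05326, and SINVm1_gene_13984 is lowest in P_Bb, with 2.13 normalized counts.

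SINVm1_gene_05175, the NADH dehydrogenase entry, had the widest range of the 5. The P_Bb library held 138.97 expected counts, against 14 in P_BB and 8 in M_BB. After normalization these were 148 (interval 125 to 175), 14.6 (7.99 to 24.5) and 7.19 (3.10 to 14.2). P_Bb stood far above both *SB/SB* libraries, whose intervals overlapped each other. P_Bb was 10.1-fold above P_BB (interval 5.85 to 19.0) and 20.6-fold above M_BB (10.2 to 48.7). P_BB was 2.03-fold above M_BB, with an interval from 0.796 to 5.59 that includes equality. The wide intervals of these ratios go with the low counts of the *SB/SB* libraries.

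SINVm1_gene_05176, the phosphatase entry, carries the next identifier but showed a much flatter profile. P_Bb held 228 expected counts, P_BB held 146 and M_BB held 208, or 243, 152 and 187 normalized counts. The P_Bb value was 1.60-fold that of P_BB (interval 1.29 to 1.98) and 1.30-fold that of M_BB (1.07 to 1.58). Both intervals lay above equality and below 2-fold. M_BB had the intermediate level, and the ratio of P_BB to M_BB was 0.815 (0.655 to 1.01).

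SINVm1_gene_13984, the Ror entry, was barely detected. P_Bb held 2 counts, P_BB held 16 and M_BB held 15, or 2.13 (interval 0.258 to 7.70), 16.7 (9.54 to 27.1) and 13.5 (7.54 to 22.2) normalized counts. The *SB/SB* libraries did not differ beyond counting error, with a ratio of P_BB to M_BB of 1.24 (0.574 to 2.69). P_Bb was below both, opposite to the direction listed by the study. That listing rests on replicate libraries of each class, while the values here come from 1 pooled library per class. P_Bb had 0.128 times the level of P_BB (0.0142 to 0.543) and 0.158 times that of M_BB (0.0176 to 0.680). Both intervals include differences of less than 2-fold. With deposited TPM and 1 added to each value, the log2 ratio to M_BB was -0.98, just short of 2-fold. Without the added 1, the TPM in P_Bb was 0.152 times that in M_BB. The P_Bb value is below the floor of 3 counts used here, so the size of the difference is poorly known. These intervals cover counting error in 1 library per class and do not bound the difference between worker classes.

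SINVm1_gene_05144 was counted 151 times in P_Bb, against 20 times in P_BB and 40 times in M_BB. The normalized counts were 161 (interval 136 to 189), 20.9 (12.7 to 32.2) and 35.9 (25.7 to 48.9). P_Bb was 7.72-fold above P_BB (4.82 to 13.0) and 4.48-fold above M_BB (3.14 to 6.52). The lower of the *SB/SB* libraries was P_BB, the one from the same colonies as P_Bb, with a ratio of P_BB to M_BB of 0.581 (0.322 to 1.02).

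SINVm1_gene_05326 had the highest mean count of the 5. P_Bb held 391 expected counts, P_BB held 176.96 and M_BB held 147, which gave 417 (interval 377 to 460.4), 185 (158 to 214) and 132 (112 to 155) normalized counts. P_Bb was 2.26-fold above P_BB (1.89 to 2.71) and 3.16-fold above M_BB (2.60 to 3.84). P_Bb was again clearly highest, but the *SB/SB* libraries also differed beyond counting error. P_BB was 1.40-fold above M_BB, and the interval of 1.12 to 1.75 excluded equality.

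**Figure D2:**
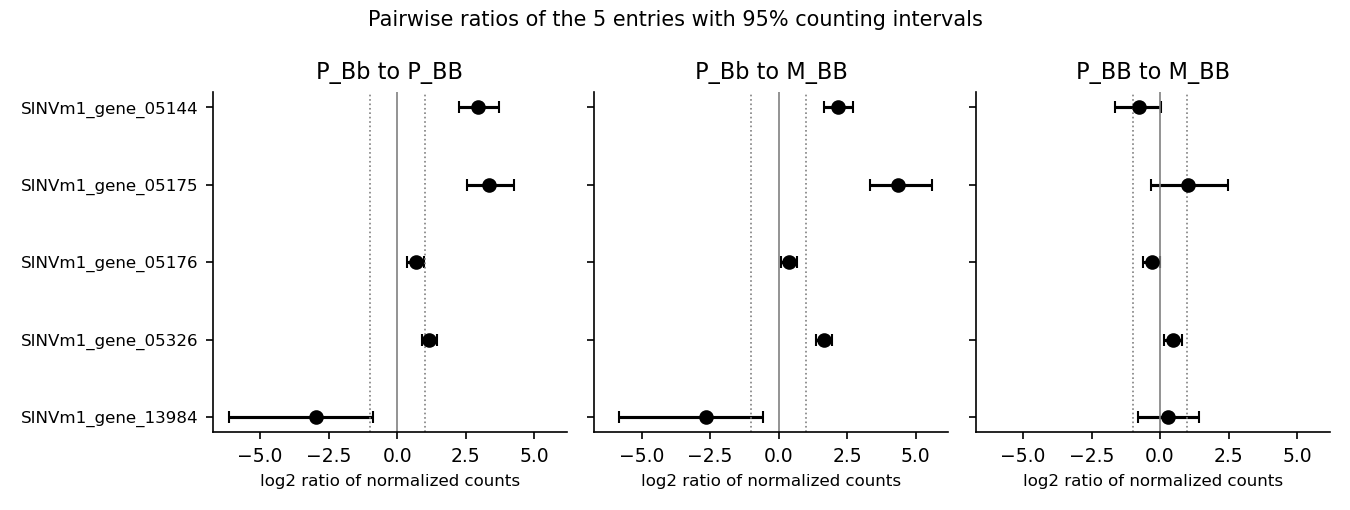
Log2 ratio of normalized counts for each of the 5 entries in the 3 pairs of libraries, without a pseudocount; bars are 95% Clopper-Pearson intervals for counting error, the solid line is equality and the dotted lines are 2-fold. Ratios of P_Bb lie above 0 for 4 entries and below 0 for SINVm1_gene_13984, while of the P_BB to M_BB intervals only that of SINVm1_gene_05326 excludes 0.

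Between the *SB/SB* libraries, 0 of the 5 entries reached 2-fold after 1 was added to each normalized count, and 4.15% of all entries compared did. The order of P_BB and M_BB was not common to the 5. SINVm1_gene_05144 and SINVm1_gene_05176 were lower in P_BB, and SINVm1_gene_05175, SINVm1_gene_05326 and SINVm1_gene_13984 were higher there. Only for SINVm1_gene_05326 was this difference larger than counting error. Social form and colony cannot be told apart in that comparison. The P_Bb values enter both genotype ratios of an entry, so the 2 ratios are not independent of each other.

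The 5 ratios were next set among those of all entries. Of the 9260 entries compared, 7 had a higher log2 ratio of P_Bb to the mean of P_BB and M_BB than SINVm1_gene_05175 (3.65), 16 than SINVm1_gene_05144 (2.46), 35 than SINVm1_gene_05326 (1.39) and 496 than SINVm1_gene_05176 (0.52). Among entries with at least the same mean normalized count as the member, 2 of 6143 had a higher ratio than SINVm1_gene_05175, 2 of 5620 than SINVm1_gene_05144, 8 of 3368 than SINVm1_gene_05176 and 0 of 2829 than SINVm1_gene_05326. Nothing is read from these places. The members were listed as higher in *SB/Sb* from the same amplified cDNA, and the mean that sets each pool includes the P_Bb count itself. SINVm1_gene_13984 had a ratio of -2.36 and is not ranked. Its mean of 10.8 normalized counts passed the filter only through the *SB/SB* libraries, where it is high.

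**Figure D3:**
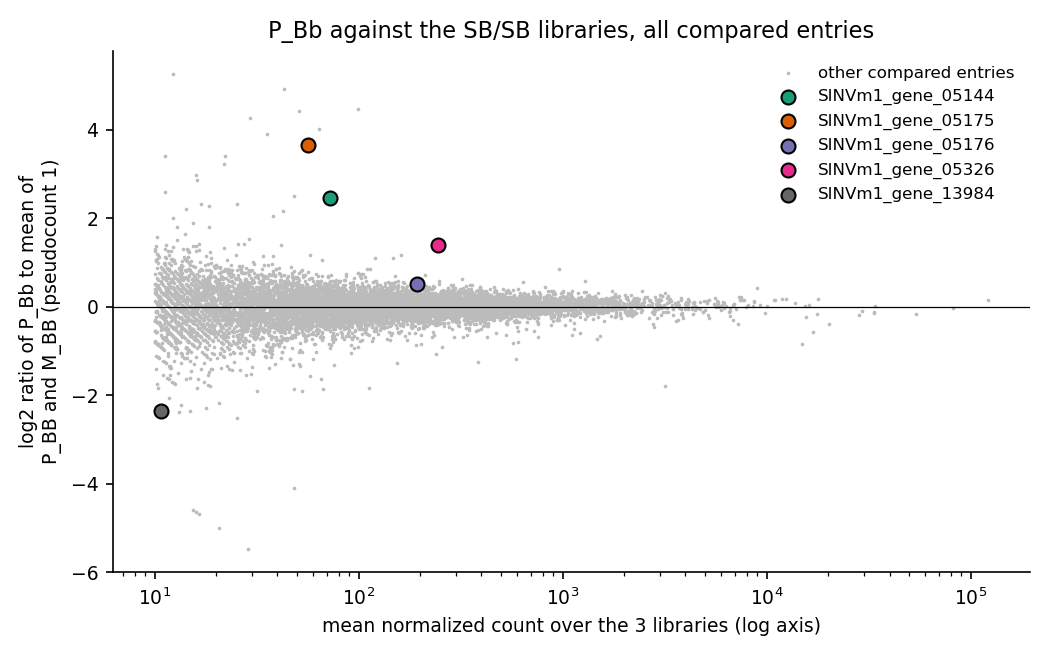
Log2 ratio of P_Bb to the mean of P_BB and M_BB (pseudocount 1) against the mean normalized count over the 3 libraries (log axis) for the 9260 entries compared, with the 5 supergene entries coloured. SINVm1_gene_05326 has no entry of equal or greater mean count above it, where the mean includes the P_Bb count. SINVm1_gene_13984 lies at the low-count edge with a ratio of -2.36.

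Levels were compared between genes as deposited TPM, which is scaled by transcript length, and with the credibility intervals that RSEM gives, whose level is not stated in the files. In P_Bb, SINVm1_gene_05175 was at 123 TPM, SINVm1_gene_05326 at 112, SINVm1_gene_05176 at 78.3, SINVm1_gene_05144 at 9.44 and SINVm1_gene_13984 at 0.21. The first 2 of these were not separated by these intervals (101 to 142 and 98.7 to 120.4), and each later step in the order was. In P_BB, SINVm1_gene_05326 (50.6 TPM) and SINVm1_gene_05176 (50.0) led with overlapping intervals, SINVm1_gene_05175 followed at 11.9, and SINVm1_gene_13984 (1.70) and SINVm1_gene_05144 (1.25) overlapped at the end. In M_BB, SINVm1_gene_05176 led at 61.7 TPM, above SINVm1_gene_05326 at 36.4, SINVm1_gene_05175 at 5.66, SINVm1_gene_05144 at 2.17 and SINVm1_gene_13984 at 1.38. There the intervals of SINVm1_gene_05175 (2.84 to 11.4) and SINVm1_gene_05144 (1.53 to 2.85) touched, and those of SINVm1_gene_05144 and SINVm1_gene_13984 overlapped. The NADH dehydrogenase entry thus had the highest TPM of the 5 in P_Bb, though not separated there from SINVm1_gene_05326. It came after the phosphatase entry and SINVm1_gene_05326 in both *SB/SB* libraries.

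**Figure D4:**
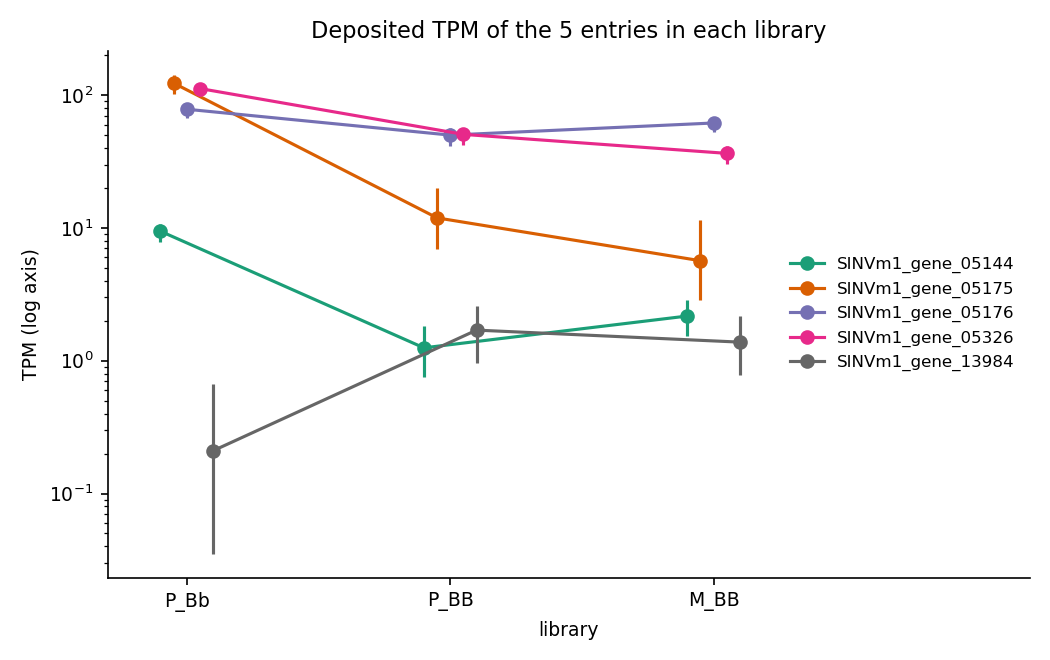
Deposited TPM (log axis) of the 5 entries in the P_Bb, P_BB and M_BB libraries; vertical bars are the credibility intervals deposited with the values, and lines join the values of 1 entry. SINVm1_gene_05175 goes from 123 TPM in P_Bb to 11.9 and 5.66 in the *SB/SB* libraries, while SINVm1_gene_05176 stays between 50.0 and 78.3.

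Among the 15589 official entries, of which 26.7% were at 0 TPM in all 3 libraries, SINVm1_gene_05175 ranked 1231 by TPM in P_Bb, against 6134 in P_BB and 7455 in M_BB. SINVm1_gene_05326 ranked 1349, 2811 and 3662 in the same order, and SINVm1_gene_05176 ranked 1901, 2844 and 2411. These entries were well expressed in P_Bb antennae, where 92.1%, 91.3% and 87.8% of official entries had a lower TPM. SINVm1_gene_05144 ranked 6593, 9184 and 8702, and SINVm1_gene_13984 ranked 10272, 8879 and 9194. For both of these, even the highest TPM was below 32.1, the median of the 3-library mean TPM over the official entries compared.

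The reads of the 5 entries were assigned almost without ambiguity. The posterior standard deviation of the count, by which RSEM measures how uncertain the division of reads between similar entries is, was 0 in all 3 libraries for 3 entries. Its largest value was 0.2 counts, for SINVm1_gene_05326 in P_BB, and the other value above 0 was 0.17 counts for SINVm1_gene_05175 in P_Bb. It was below 1 count in all libraries for 90.6% of the official entries compared. This measure covers only sequences in the reference, and a copy absent from it would not show. The coding lengths were 4668 bases for SINVm1_gene_05144, 2826 for SINVm1_gene_13984, 1155 for SINVm1_gene_05326 and 993 for SINVm1_gene_05176, against a median of 1368 over the official entries compared. SINVm1_gene_05175 was the shortest, with a mean over its transcripts of 490.61 bases in P_Bb.

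The entries most like each of the 5 were sought by the Euclidean distance between profiles of log2(normalized count + 1), centred over the 3 libraries, among compared entries within 2-fold of the same mean count. For SINVm1_gene_05175, 1 of 2919 such entries lay within a distance of 0.5, SINVm1_gene_00322 (distance 0.21), with 96.0 normalized counts in P_Bb against 7.30 in P_BB and 3.59 in M_BB. Next came SINVm1_gene_05106 (0.92) and SINVm1_gene_00922 (1.23). SINVm1_gene_00322 is itself on the genotype list of the study and passed the filter only through P_Bb. For SINVm1_gene_05144 the nearest was SINVm1_gene_00922 (0.48), with 109, 17.7 and 18.9 normalized counts, ahead of SINVm1_gene_00903 (0.78) and SINVm1_gene_02960 (1.10). For SINVm1_gene_05326 they were XLOC_043345 (0.32), with 228, 136 and 76.3, then XLOC_007352 (0.42) and SINVm1_gene_00721 (0.58). Within 0.5 of SINVm1_gene_05144 lay 1 of 3031 such entries, and within 0.5 of SINVm1_gene_05326 lay 2 of 2899.

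The profile of SINVm1_gene_05176 was nearest to those of SINVm1_gene_10995, XLOC_002426 and SINVm1_gene_12543 (0.08, 0.08 and 0.10). Within 0.5 of it lay 1502 of 3001 such entries, so these neighbours do not mark it out. XLOC_002426 is itself on the genotype list of the study. For SINVm1_gene_13984, 5 of 1302 entries lay within 0.5, and SINVm1_gene_00316 (0.19), SINVm1_gene_00790 (0.25) and SINVm1_gene_05364 (0.32) were nearest. These neighbours were at or near the floor in P_Bb, with 3.22, 2.13 and 3.08 normalized counts. Like SINVm1_gene_13984, they passed the filter only through the *SB/SB* libraries, so nothing is read from this likeness. Within the 5, the closest pair was SINVm1_gene_05176 and SINVm1_gene_05326, at 0.91, and the pair with consecutive identifiers, SINVm1_gene_05175 and SINVm1_gene_05176, was 2.75 apart. With 3 libraries a distance is a description only.

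The *SiOBP12* entry of the supergene, SINVm1_gene_02111, reached 164 TPM in P_Bb against 5.06 in P_BB and 8.76 in M_BB, where SINVm1_gene_05175 was at 123, 11.9 and 5.66 TPM. Of the 10 further official entries on the genotype list, 7 passed the filter, and 6 of these are listed as higher in *SB/Sb*. Of the 6, 5 were at least 2-fold above both *SB/SB* libraries in P_Bb, as were 3 of the 5 supergene entries and 0.540% of all entries compared. Nothing is read from this count. The list was drawn from the same amplified cDNA, and some of its entries, such as SINVm1_gene_00322, passed the filter only through P_Bb, where they are high.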

How the data were processed

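Antennal RNA of 3 worker classes was measured in 3 libraries, 1 per class, grouped by the labels. The authors mapped read pairs with Bowtie to a transcript reference and quantified them with RSEM, per the file headers and labels; versions for these libraries are not given in the sources used here. The deposited expected counts are estimated counts per entry, not normalized. The deposited TPM were derived by RSEM from those counts and effective lengths. All official entries with 1 transcript had lengths in multiples of 3 (15340 of 15340), so lengths are coding lengths. The transcript models on Si_gnH carry other names and were not used, so no positions are given. The file of EBSeq patterns holds only definitions and was not used.

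Expected counts were divided by size factors from the upper quartile (percentile 75 over all entries, geometric mean 1), giving P_Bb 0.938, P_BB 0.958 and M_BB 1.11. Entries whose normalized counts averaged at least 10 were compared. Calls used a 2-fold threshold and a pseudocount of 1, while folds with intervals used none. Counts were rounded for intervals. Counts of at most 3 were treated as the floor. Ratios and intervals were tested on simulated Poisson counts, which do not hold the spread that amplification can add. With 1 library per class no model was fitted. The alternatives were TMM (edgeR 4.0.16), median-of-ratios (DESeq2 1.42.0) and library totals, deposited TPM, posterior mean counts, pseudocounts of 0.5 and 5, no filter, an average of at least 100, a threshold of 1.5-fold or 4-fold, and the added condition that each interval exclude equality. Python 3.11.15 and scipy 1.17.1 were used. The entries named are the 5 members, *SiOBP12* and, for each member, the 3 entries with the most similar profile. Members and lists were chosen with earlier results of these data known.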

Additional observations from a re-analysis of the deposited data

How the results depend on the processing

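No paired analysis was possible because there was 1 library per class, and leaving out a library would leave a class empty. The log2 ratio of P_Bb to the mean of P_BB and M_BB kept its sign for all 5 entries under every alternative run. It ranged from 1.95 to 2.48 for SINVm1_gene_05144 (2.46 in the main setting), from 3.27 to 3.71 for SINVm1_gene_05175, from 0.48 to 0.52 for SINVm1_gene_05176, from 1.34 to 1.39 for SINVm1_gene_05326 and from -2.57 to -1.07 for SINVm1_gene_13984. Only the value of SINVm1_gene_05144 with deposited TPM, 1.95, left its main counting interval; a pseudocount of 1 weighs more on TPM, which are lower than counts for this long entry. The number of entries at least 2-fold above both *SB/SB* libraries in P_Bb was 3 in the main setting under every alternative run except 2. It was 2 with a 4-fold threshold, and 1 with a mean of at least 100 normalized counts, where 2 of the 5 entries were left. With deposited TPM and a pseudocount of 1, the log2 ratio of P_Bb to M_BB for SINVm1_gene_13984 was -0.98, just short of the 2-fold threshold. That shortfall comes from the pseudocount, which is large beside the TPM of this entry. Without it, the TPM in P_Bb was 0.152 times that in M_BB and 0.124 times that in P_BB. No scaling moved the median ratio of all entries by more than 0.1. With 2 counts in P_Bb, counting error alone left SINVm1_gene_13984 anywhere between 1.79-fold and 60.5-fold lower than the *SB/SB* mean. Each class was 1 library, so this range does not bound the difference between worker classes.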

Other observations

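SINVm1_gene_05175 was the only one of the 5 entries with more than 1 transcript in the reference, which held for 2.43% of the official entries compared. The length deposited for such an entry is the mean over its transcripts weighted by their abundance. It was 490.61 bases in P_Bb, 500.37 in P_BB and 513.72 in M_BB, so the shorter transcript had a larger share in P_Bb than in the *SB/SB* libraries as RSEM divided the reads. The *SB/SB* values rest on 14 and 8 counts, and levels of the single transcripts were not analysed here. The effective length, which enters TPM, moved with it, from 317 bases in P_Bb to 331 in P_BB and 345 in M_BB, so that P_Bb was 21.8-fold above M_BB in TPM and 20.6-fold above it in normalized counts.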
